A study of Mus musculus with 10 samples.

Results

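The comparison set the peaks of POLR3G against those of POLR3GL in primary mouse embryonic fibroblasts (MEFs), by chromatin immunoprecipitation sequencing (ChIP-seq), which sequences the DNA that an antibody to a protein pulls down. Its members were all autosomal peaks of the 2 lists, 176 for POLR3G and 263 for POLR3GL. These 439 peaks were taken out of 1289 peaks in the RNA polymerase III (Pol III) lists of the series and 46940 peaks in all. MEFs were cells that the submitters isolated from E12.5 embryos (E, embryonic day) and passaged 3 to 5 times. No genetic change or treatment is named for them. Lists for POLR3C and for RNA polymerase II (Pol II) in MEFs, and for POLR3GL, POLR3C and Pol II in ES-E14TG2a cells, a mouse embryonic stem (ES) cell line, served as readouts from other libraries.

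There was 1 library per antibody and cell type, so no difference below has a replicate error or a test. The sources used here do not say how many embryos gave the cells. The labels give the Pol III antibodies as made in-house. A score is the authors' own value for a peak, on a scale that is not stated, and was used to rank or describe peaks within 1 list. Sizes were set against each other between lists only as a correlation and in 1 alternative, the ratio of the scores. The depth of the libraries is unknown. Intervals on shares are exact Clopper-Pearson 95% intervals. They cover counting error over loci, and neighbouring loci share chromatin.

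Pol III makes tRNAs, 5S rRNA and a few other short RNAs. At a tRNA gene, the factor TFIIIC binds promoter elements inside the gene and places TFIIIB just upstream, and TFIIIB brings in the polymerase. POLR3C belongs to a detachable subcomplex of the polymerase that takes part in initiation. Beside POLR3C and POLR3F, that subcomplex holds either POLR3G or its paralog POLR3GL, so a polymerase carries one or the other. POLR3G is known as the form abundant in pluripotent and many transformed cells, and POLR3GL as the form found widely in differentiated cells. No gene name was attached to a peak, because no annotation of the mouse build mm9 was used here, and loci are named by mm9 position. No sequence is shown for the same reason.

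Nearly every POLR3G peak lay on a POLR3GL peak, while 92 of the 263 POLR3GL peaks stood without POLR3G. Of the 176 POLR3G peaks, 171 shared at least 1 bp with a POLR3GL peak (97.2%, interval 93.5 to 99.1%), and these made up 65.0% (58.9 to 70.8%) of the 263 POLR3GL peaks. Each overlap joined exactly 1 peak of each list. Together the lists gave 268 loci, of which 171 were paired, 5 held POLR3G alone and 92 held POLR3GL alone. Pairing by midpoints at most 500 bp apart kept all 171 pairs and added 2. One was on chromosome 13, where a POLR3G peak from 23390852 to 23390999 (score 17) lay 207 bp from a POLR3GL peak (score 29). The other was on chromosome 3, where a POLR3G peak from 96206259 to 96206406 (score 18) lay 201 bp from a POLR3GL peak (score 26).

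The paired loci spanned POLR3G scores of 15 to 46 (median 25) and POLR3GL scores of 16 to 100 (median 57). The scores rose together over the 171 loci (Spearman rho 0.73, Pearson r 0.72), as a description of loci that share their libraries. The locus with the highest score in both lists was chromosome 7 from 127978949 to 127979101, with 46 for POLR3G and 100 for POLR3GL. It was followed in mean rank by chromosome 3 from 90279773 to 90279927 (40 and 81), chromosome 7 from 86611282 to 86611432 (41 and 77), and chromosome 11 from 106874134 to 106874288 (39 and 86). The first 4 of these loci all overlapped a Pol II peak in MEFs and in ES cells. The fifth, on chromosome 11 from 58115962 to 58116109 (44 and 73), lay 19754 bp from the nearest MEF Pol II peak.

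At the other end, 5 of the 6 paired loci with the lowest mean rank lay on chromosome 13, counting 3 that tied for the fourth place. They had POLR3G scores of 15 or 16 and POLR3GL scores of 26 to 41. All 5 carried POLR3C in MEFs, with scores from 152 to 222. The other one was chromosome 1 from 87489654 to 87489807, with the lowest paired POLR3GL score (16) and a POLR3G score of 15. Its nearest POLR3C peak was 12626151 bp away, and it overlapped a MEF Pol II peak (score 329.7). The next lowest paired POLR3GL scores were 22, at a locus on chromosome 3 described below, 26, and 31 at 2 loci (84032919 to 84033085 of chromosome 3 and 79518097 to 79518303 of chromosome 11), both with a POLR3G score of 17.

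**Figure D1:**
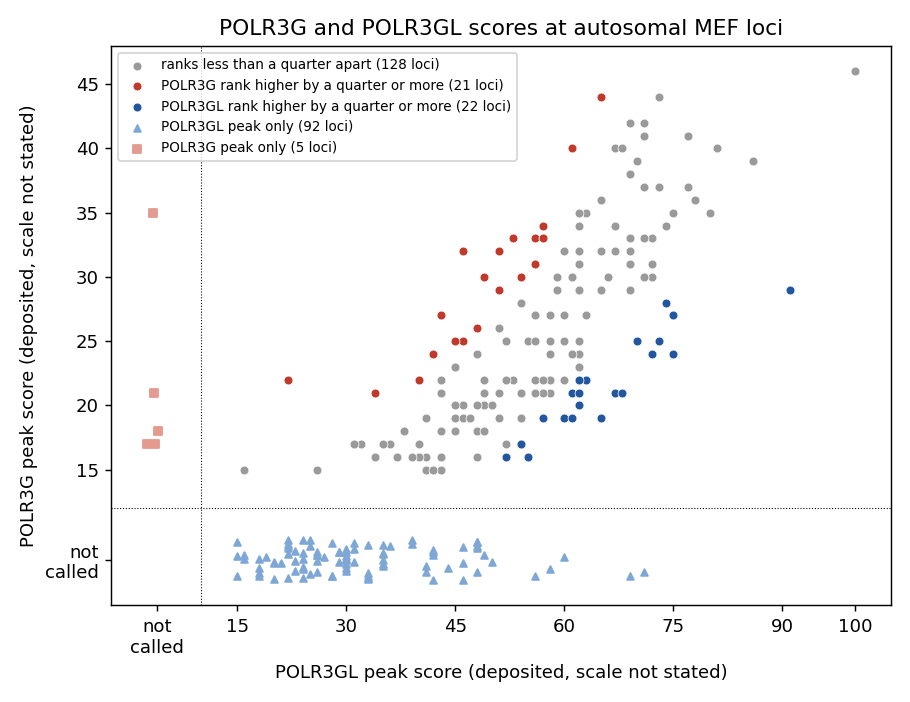
Deposited POLR3GL score (horizontal) against POLR3G score (vertical) at the 268 autosomal MEF loci. Points are paired loci, coloured by rank difference, and the strips outside the dotted lines hold the 92 loci with POLR3GL alone, mostly at low scores, and the 5 with POLR3G alone, spread at random across the strip.

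To ask where one paralog stood high relative to the other, both scores were ranked among the 171 paired loci, so that the ranks run over the same number of loci. The rank difference is the POLR3G rank minus the POLR3GL rank, in percent of the 171 loci. A locus was called unequal when its ranks lay at least 25% apart. The median absolute difference was 11.7%, and 77 loci (45.03%) had ranks within 10% of each other. POLR3G ranked higher by 25% or more at 21 loci (12.3% of the 171), and POLR3GL at 22 (12.9%), so 43 loci (25.1%) were unequal. The mean rank is the same in both lists by construction, so similar counts in both directions largely follow from the rule. They do not show that the paralogs stood high at equal numbers of loci. The 92 loci with POLR3GL alone and the 5 with POLR3G alone got no rank and could not be called. Loci of low POLR3GL score entered only where POLR3G was also called, as at 3 of the 47 POLR3GL peaks with a score of 15 to 29. Just inside the limit towards POLR3G was a locus at 25.7% (scores 44 and 65), and just outside it one at 24.9% (26 and 51). Towards POLR3GL the last locus inside stood at -27.2% (17 and 54) and the first outside at -22.8% (23 and 62).

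The ranks are coarse, because POLR3G had only 30 different scores over these loci and POLR3GL 52. A change of 1 score unit moved a locus by a median of 3.51% of the ranks in the POLR3G list and 1.75% in the POLR3GL list. With percentile ranks in each whole list instead, 3 loci were called towards POLR3G and 49 towards POLR3GL. That setting carries the unequal lengths of the lists, whose additional POLR3GL peaks mostly had low scores.

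Unequal ranks between these paralogs were about as common as between POLR3C and POLR3GL in MEFs and less common than between POLR3C and POLR3G, without a test of these shares. On the 143 paired loci that also had POLR3C in MEFs and POLR3GL and POLR3C in ES cells, 38 (26.6%) were at least 25% apart for MEF POLR3G against MEF POLR3GL. For MEF POLR3C against MEF POLR3GL, 36 of the same loci were (25.2%), and for MEF POLR3G against MEF POLR3C 51 were (35.7%). For the same antibody, POLR3GL, between MEFs and ES cells, 54 were (37.8%), and for POLR3C between the cell types 62 were (43.4%). The lowest share of all 10 pairs of lists was that of POLR3GL against POLR3C within ES cells, at 23 loci (16.1%). The median absolute rank difference was 11.9% for POLR3G against POLR3GL and 11.2% for POLR3C against POLR3GL in MEFs. Several of these pairs share a list.

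The locus furthest towards POLR3G was chromosome 8 from 97227862 to 97228010. Its POLR3G score was 32 and its POLR3GL score 46, a rank difference of 56.4%, with midpoints 1 bp apart. Its neighbour on the same chromosome, from 97227465 to 97227674, scored 30 and 49 (42.1%). These loci lay 366.5 bp apart and were the only neighbours within 1 kb that were both called towards POLR3G. No other locus lay with them in a cluster, and the nearest Pol II peak of MEFs was 36256 bp from the first and 35859 bp from the second. In MEFs, POLR3C was called at the second (220) and not at the first, where its nearest peak ended 132 bp away. In ES cells it was the reverse, with POLR3C called at the first (1781) and not at the second. The MEF POLR3C list held no midpoints closer than 450 bp, which is more than the distance between these loci.

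The next loci in this direction stood alone and overlapped Pol II peaks of both cell types. The locus on chromosome 12 from 72070041 to 72070260 had a POLR3G score of 32 and a POLR3GL score of 51 (46.8%), with a MEF Pol II score of 370.01. Chromosome 10 from 92915678 to 92915868 scored 33 and 53 (46.2%), with a MEF Pol II score of 120.29. At both, POLR3C was called in MEFs (218 and 234) and in ES cells (2535 and 1755).

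Within clusters, the largest differences towards POLR3G were on chromosomes 13 and 11. The locus on chromosome 13 from 23523242 to 23523419 had scores of 27 for POLR3G and 43 for POLR3GL (43.9%) and lay in a Pol II peak in both cell types. Chromosome 11 from 68855246 to 68855415 scored 33 and 56 (37.1%), and chromosome 13 from 21802402 to 21802554 scored 34 and 57 (36.3%). The last had no POLR3C peak of its own, and one lay 191 bp away.

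A locus on chromosome 3, from 145309389 to 145309558, differed from the rest in its other readouts. POLR3G and POLR3GL both scored 22 there, which ranked 66 and 2 among the 171 loci (37.4%). The distance to the nearest POLR3C peak was 23313391 bp in the MEF list and 23313374 bp in the ES list, and there was no POLR3GL peak in ES cells. It overlapped an ES Pol II peak with a score of 1743.66, while the nearest MEF Pol II peak was 31116 bp away. The remaining loci among the 10 with the largest differences in this direction were chromosome 11 from 48670072 to 48670220 (40 and 61, 34.5%) and chromosome 6 from 29338757 to 29338977 (24 and 42, 33.6%). Chromosome 15 from 57807468 to 57807626 (29 and 51) tied with the last of these.

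Towards POLR3GL, the largest difference was at chromosome 1 from 34491565 to 34491796, an isolated locus. Its POLR3G score was 19 and its POLR3GL score 65 (-52.9%), and its midpoints lay 84 bp apart, which was also the largest offset of all pairs. It overlapped Pol II peaks of MEFs (324.29) and ES cells (128.03). Chromosome 13 from 23558911 to 23559059 came next, with 24 and 75 (-48.5%) and midpoints 1 bp apart. That locus had the highest ES POLR3GL score of all autosomal peaks, 60, and the nearest MEF Pol II peak was 20893 bp away.

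Other loci of this kind had midpoints that fell together. At chromosome 5 from 125884609 to 125884756, POLR3G scored 21 and POLR3GL 68 (-47.7%), and at chromosome 3 from 121995825 to 121995972 they scored 21 and 67 (-45.9%), both with an offset of 0 bp. Chromosome 19 from 12085531 to 12085682 scored 24 and 72 (-43.6%), with an offset of 4 bp. An unequal rank was thus found at pairs whose peaks covered the same bases. The other 5 of the 10 largest differences lay on chromosomes 6 (at 128793225 and at 47731610), 1 (at 172968696), 10 (at 12642334) and 8 (at 113586392), with POLR3G scores of 19 to 27 and POLR3GL scores of 60 to 75.

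The classes were then described by libraries that the rank rule did not use. All 22 loci towards POLR3GL had a POLR3C peak in MEFs (84.6 to 100%), as had 17 of the 21 towards POLR3G (81.0%, 58.1 to 94.6%) and 159 of all 171 (93.0%). The intervals of the 2 classes overlap. Over the 143 loci with all 5 lists, the median MEF POLR3C percentile was 43.4 at the 14 loci towards POLR3G and 69.2 at the 21 towards POLR3GL. In ES cells the median POLR3GL percentile was 34.97 at the former and 52.1 at the latter, and the median POLR3C percentile was 37.6 and 48.6. The ranges of the classes overlapped widely in each of these 3 lists. In MEF POLR3C they ran from 5.24 to 86.4 and from 3.50 to 99.0. The median MEF POLR3C percentile of the 108 loci with like ranks was 49.0. The rule itself set the median MEF POLR3GL percentile at 31.3 towards POLR3G and 64.7 towards POLR3GL. Over the 143 loci, MEF POLR3C scores followed MEF POLR3GL (rho 0.66) more closely than MEF POLR3G (0.48). The POLR3C medians of the classes are therefore not independent of the rule.

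**Figure D2:**
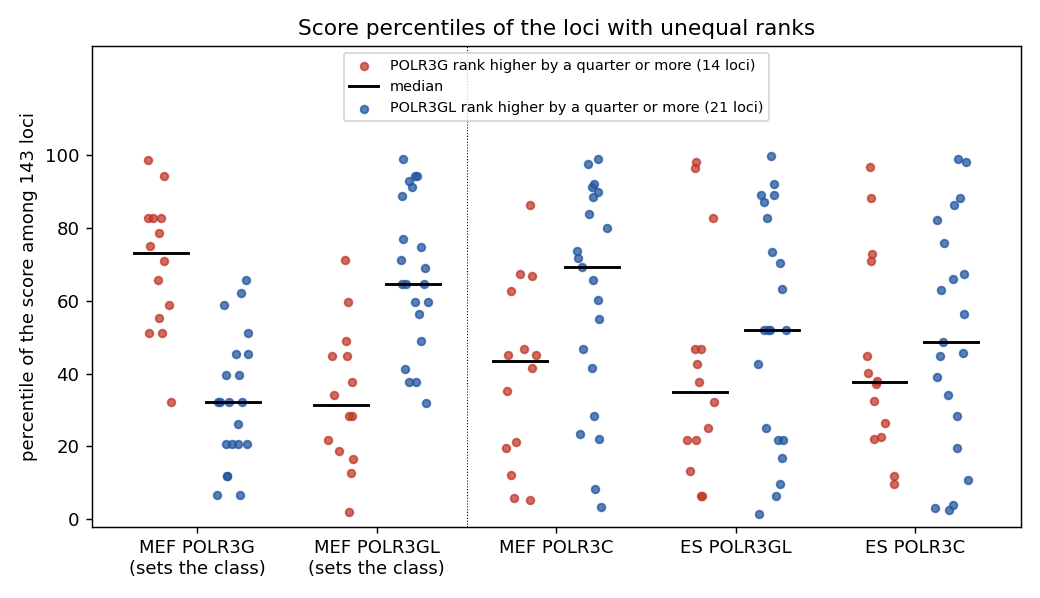
Percentile of each locus among the 143 paired loci with peaks in all 5 lists (vertical), for the 14 loci towards POLR3G (red) and the 21 towards POLR3GL (blue), in the lists that set the classes (left of the dotted line) and in 3 other lists. Black bars are medians, which in the other lists are lower for the red loci, with wide overlap.

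Shares of loci in clusters and at Pol II peaks did not set the classes apart at these numbers, which leave wide intervals. Loci at most 200 kb apart were joined, and groups of 8 or more were called clusters. Of the loci towards POLR3G, 8 of 21 lay in clusters (38.1%, 18.1 to 61.6%), of those towards POLR3GL 8 of 22 (36.4%, 17.2 to 59.3%), and of all paired loci 70 of 171 (40.9%). Both classes were spread over 11 chromosomes. Chromosome 13 held 5 of the 21 and 3 of the 22, beside 45 of the 171. A MEF Pol II peak overlapped 10 of the 21 (47.6%, 25.7 to 70.2%) and 8 of the 22 (36.4%, 17.2 to 59.3%), beside 66 of 171 (38.6%). None of the cluster and Pol II shares lies outside the interval of the other class. The median gap to the nearest MEF Pol II peak was 316 bp towards POLR3G and 5281 bp towards POLR3GL. Over all paired loci it was 1578 bp, and this difference was not tested.

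Unequal ranks of both kinds occurred within single clusters. In the cluster on chromosome 11 from 68850440 to 68938829, rank differences ran from -32.2% to 37.1% over 11 paired loci. In the third cluster on chromosome 13, from 23377432 to 23622363, they ran from -48.5% to 43.9% over 20. Of all 171 paired loci, 21 (12.3%) were towards POLR3G and 22 (12.9%) towards POLR3GL. Counts within 1 cluster are small and were not tested against these shares. The cluster on chromosome 1 from 172963988 to 173041643 had 2 loci towards POLR3GL and 1 towards POLR3G among 8. The second cluster on chromosome 13, from 21802402 to 22142702, had 3 loci towards POLR3G and 0 towards POLR3GL among 13, and its median difference was 8.19%. Its lowest difference was -22.8%, at 22032705 (scores 23 and 62). In the first cluster on that chromosome, from 21252653 to 21418682, the extremes were the locus at 21346030 (17 and 54, -27.2%) and that at 21261556 (33 and 57, 32.7%). On chromosome 3 they were the loci at 96301638 (16 and 52, -27.5%) and 96303368 (31 and 62, 7.89%).

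The clusters differed in how often POLR3G was called, and they differed in POLR3GL score too. Over all 268 loci, 171 were paired. The cluster on chromosome 1 had POLR3G at 8 of 9 loci, and that on chromosome 11 had both paralogs at 11 of 16. On chromosome 13 the pair was complete at 12 of 23, 13 of 29 and 20 of 37 loci of the 3 clusters, and on chromosome 3, from 96202922 to 96305505, at 5 of 10. On chromosome 6, from 128710071 to 128793376, it was complete at 1 of 9 loci. There the median POLR3GL score was 30, and the 1 paired locus had the highest POLR3GL score, 62. In the clusters on chromosomes 1 and 11, with the largest shares of pairs, the median POLR3GL score was 61 and 59. It was 41, 36 and 43 in the clusters on chromosome 13, and 48 on chromosome 3. The part of POLR3GL score in these shares was not tested.

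**Figure D3:**
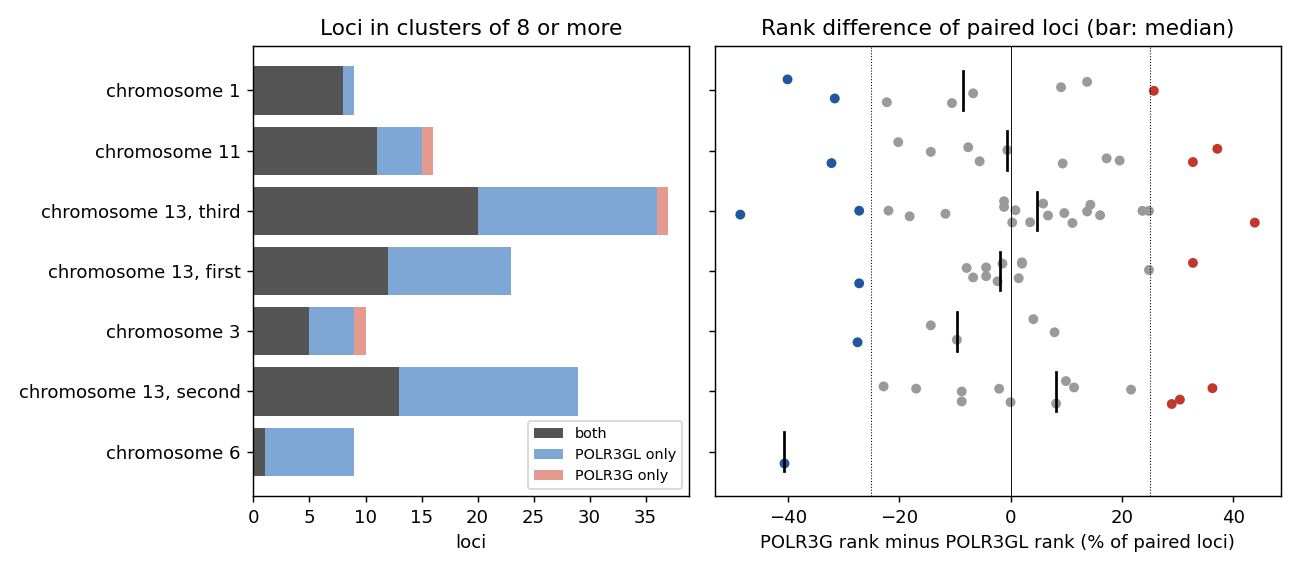
Left, number of loci with both peaks, POLR3GL alone or POLR3G alone in the 7 clusters of 8 or more loci, in order of the share with both. Right, rank difference of each paired locus in those clusters in percent of the 171 paired loci, with the median as a bar and the 25% limits dotted; 4 of the 6 clusters with more than 1 paired locus hold loci beyond both limits.

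The rank differences of neighbouring loci lay about as far apart as those of any 2 paired loci, without a test. Paired loci followed one another within 1 kb in 33 cases, and in 15 of these (45.5%) the rank differences of the neighbours were at least 25% apart. Over all 14535 combinations of 2 paired loci, near or far, the share was 40.6%. The median change was 24.9% between neighbours and 20.2% over all combinations. The largest change between neighbours was 64.9%. This was on chromosome 11, where the locus from 68937722 to 68937896 had a POLR3G score of 25 and a POLR3GL score of 70 (-32.2%), and the locus 327 bp away, from 68938051 to 68938221, scored 33 and 57 (32.7%). This was the 1 case in which neighbours were called in opposite directions. Sonicated fragments averaged 200 to 700 bp, so libraries can hold fragments that cover both loci of such a pair. Among the 138 paired loci with no other locus within 500 bp, re-ranked among themselves, 18 were called in each direction.

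**Figure D4:**
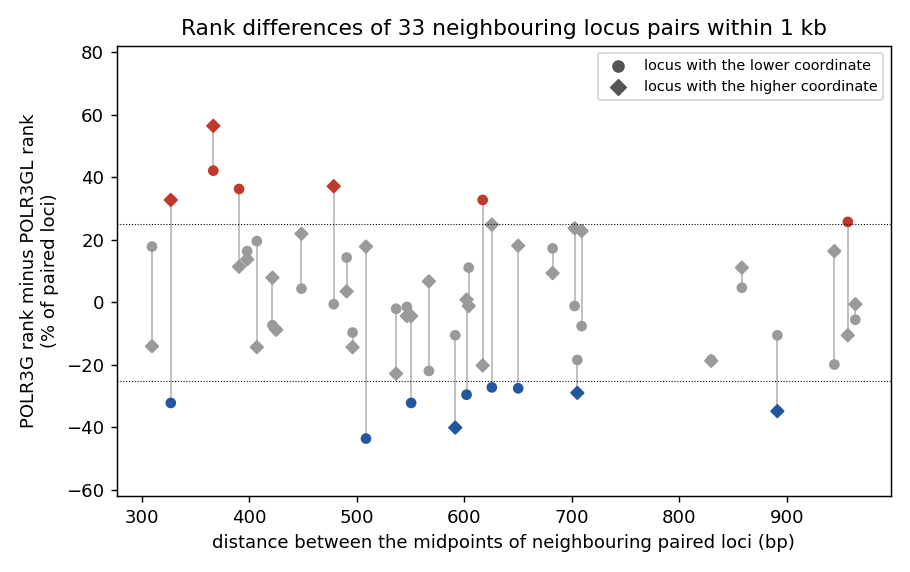
Rank difference (vertical, percent of paired loci) of both loci in the 33 cases of paired loci within 1 kb, joined by a line and placed by the distance between their midpoints (horizontal, bp). Red is towards POLR3G, blue towards POLR3GL and grey neither, and the case at 327 bp joins a blue and a red locus.

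The midpoints of the paired peaks lay close together. Both lists had peaks of 148 bp, and the absolute offset had a median of 16 bp and quartiles of 6 and 37.5 bp. The offset was at most 10 bp at 73 loci (42.7%) and over 50 bp at 29 (17.0%). On the 143 loci with all 5 lists, the median absolute offset was 15 bp for POLR3G against POLR3GL in MEFs, 12 bp for POLR3GL against POLR3C in MEFs, and 15 bp for POLR3GL between the cell types. Offsets over 50 bp were found at 15.4%, 22.4% and 21.7% of these loci, respectively. For POLR3C between the cell types the median was 9 bp, with 20.3% over 50 bp. These shares are not on equal terms. POLR3G and POLR3GL had to overlap each other, whereas other lists only had to overlap the joined span of the pair. POLR3C peaks of MEFs were also wider, at 224 bp. The largest offset was 84 bp for POLR3G against POLR3GL, 136 bp for POLR3GL against POLR3C in MEFs, and 87 bp for POLR3GL between the cell types.

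Along the reference strand, POLR3G lay at the lower coordinate at 93 loci, at the higher at 72 and at the same midpoint at 6, with a median offset of -2 bp. The lists carry no strand, so a shift along the direction of transcription cannot be read from this. Offsets of 15 to 35 bp were more frequent towards the lower coordinate (29 loci) than the higher (14 loci), a count made after the offsets were plotted. Those over 50 bp were even (14 and 15). At all 29 loci with an offset over 50 bp POLR3C was called in MEFs, beside 159 of all 171 paired loci (93.0%). A wide offset also gives a longer joined span for a POLR3C peak to overlap. At these 29 loci the POLR3C midpoint was nearer to POLR3G at 15 and nearer to POLR3GL at 14. Over all 159 loci it was nearer to POLR3G at 71, nearer to POLR3GL at 77 and equally near at 11. Of the 29, 6 had the POLR3C midpoint between the other 2.

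The largest offsets after that on chromosome 1 were 82 bp on chromosome 3 from 51163252 to 51163481 (scores 20 and 50), -81 bp on chromosome 7 from 65654604 to 65654832 (30 and 71), 78 bp on chromosome 5 from 125889308 to 125889533 (32 and 65) and 76 bp on chromosome 11 from 48647304 to 48647527 (22 and 63). Large offsets were found in each rank class. The offset exceeded 50 bp at 3 of the 21 loci towards POLR3G, 2 of the 22 towards POLR3GL and 24 of the other 128. Loci with a POLR3GL rank in the upper part had a median absolute offset of 10.5 bp (84 loci), and those in the lower part one of 19 bp (87 loci).

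**Figure D5:**
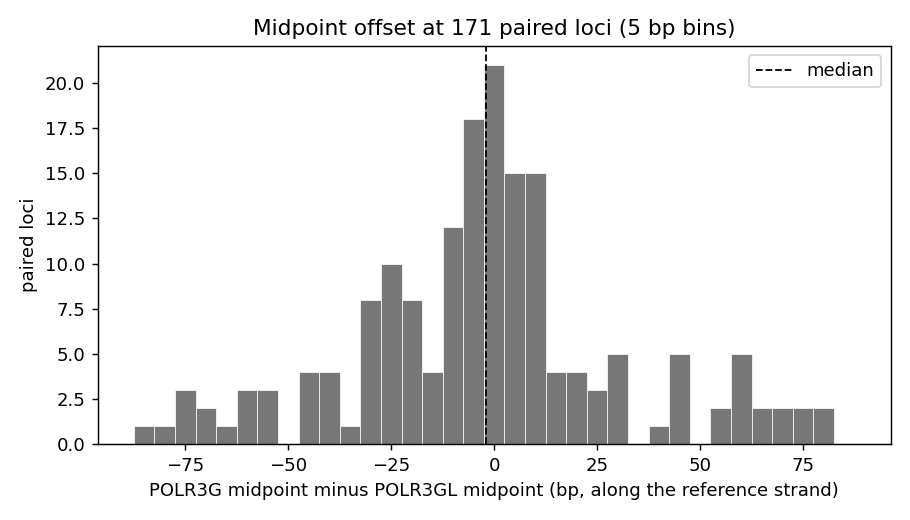
Number of paired loci (vertical) by POLR3G midpoint minus POLR3GL midpoint in bp along the reference strand (horizontal, bins of 5 bp). The 171 offsets run from -84 to 82 bp around a median of -2 bp (dashed), with more loci between -35 and -15 bp (29) than between 15 and 35 bp (14).

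POLR3GL peaks without POLR3G were mostly those of low score. POLR3G was called at 3 of 47 POLR3GL peaks with a score of 15 to 29 (6.38%, 1.34 to 17.5%), at 25 of 58 with 30 to 44 (43.1%), at 67 of 79 with 45 to 59 (84.8%) and at 76 of 79 with 60 to 100 (96.2%, 89.3 to 99.2%). A POLR3G peak that missed the threshold of its list cannot be told apart from an absent one. The pairs of low POLR3GL score therefore hold only loci whose POLR3G peak passed that threshold. In the lower 3 score classes the median POLR3C score was also lower where POLR3G was missing. It was 188 without and 206 with POLR3G at POLR3GL scores of 30 to 44, and 208 against 229 at scores of 45 to 59. At 30 to 44 the medians were 186 and 208 in clusters, and 190 (7 loci) and 191 (13 loci) outside them. At scores of 15 to 29, where 1 locus with POLR3G had POLR3C, the values were 148 and 170. At scores of 60 or more, the 1 locus without POLR3G that had POLR3C scored 289, against a median of 250.5.

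In clusters, POLR3G was called at 70 of 130 POLR3GL peaks (53.8%, 44.9 to 62.6%), and outside them at 101 of 133 (75.9%, 67.8 to 82.9%). This gap was widest at POLR3GL scores of 30 to 44, where the share was 33.3% (12 of 36, interval 18.6 to 51.0%) in clusters and 59.1% (13 of 22, 36.4 to 79.3%) outside them, with intervals that overlap. At scores of 45 to 59 it was 82.9% and 86.8%, and at 60 to 100 the order turned, with 100% in clusters (23 of 23) and 94.6% outside (53 of 56). Clustered loci also had lower POLR3GL scores, with 66 of 130 under 45 against 39 of 133 outside.

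Pol II peaks of MEFs overlapped 19 of the 92 loci with POLR3GL alone (20.7%, 12.9 to 30.4%) and 66 of the 171 paired loci (38.6%, 31.3 to 46.3%). More of the former lay in clusters (60 of 92 against 70 of 171). Inside clusters the Pol II shares were 11.7% and 10.0%, and outside them 37.5% (12 of 32, 21.1 to 56.3%) and 58.4% (59 of 101, 48.2 to 68.1%).

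A few POLR3GL peaks of high score had no POLR3G peak. Of the 92, 15 scored 45 or more. The top 4 of these, on chromosome 11 from 58115654 to 58115801 (score 71), chromosome 2 from 57034422 to 57034569 (69), chromosome 5 from 125885981 to 125886128 (60) and chromosome 11 from 68850440 to 68850587 (58), each had a POLR3G midpoint 308 to 490 bp away, at a neighbouring locus. The highest with none within 500 bp was chromosome 17 from 26011953 to 26012100, with a POLR3GL score of 56 and a POLR3C score of 216. It overlapped a MEF Pol II peak (204.67) and was not called by POLR3GL in ES cells. It was followed by chromosome 11 from 97658368 to 97658515 (POLR3GL 50, POLR3C 217) and chromosome 10 from 90644124 to 90644271 (49 and 186). On chromosome 6, neighbouring loci at 128788391 and 128789001 both scored 48 for POLR3GL, with POLR3C scores of 180 and 202. Further loci of this kind scored 46 to 48 and lay on chromosomes 2 (at 18508685), 3 (at 96232104), 13 (at 23618320), 1 (at 173032438) and 7 (at 128062199). A locus on chromosome 13 at 23613739 tied with the lowest of them, at 46.

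Only 5 POLR3G peaks had no POLR3GL peak, and they were of different kinds. Those on chromosomes 3 and 13 were the ones paired by midpoint. The third, on chromosome 11 from 68854402 to 68854549, had a POLR3G score of 35, above the list's median of 25. It lay in a cluster, 374 bp from the nearest POLR3GL midpoint and 115 bp from the end of a POLR3C peak. The remaining pair of peaks lay 343 bp apart on chromosome 19, from 5794941 to 5795088 (score 17) and from 5795284 to 5795431 (score 21). The nearest POLR3C peak of MEFs was 756439 bp from the first, and the nearest POLR3GL midpoint 756713 bp. Both lay inside an ES Pol II peak with a score of 3100, while the nearest MEF Pol II peak was 12708 and 12365 bp away. Whether these mark Pol III is not known.

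Of the 171 paired loci, 12 had no overlapping POLR3C peak in MEFs. At 10 of them a POLR3C peak ended 113 to 320 bp away, and the other 2 were those on chromosomes 1 (at 87489654) and 3 (at 145309389) described above. The POLR3C list held no midpoints closer than 450 bp, whereas the smallest spacing was 303 bp for POLR3GL and 316 bp for POLR3G. Of the 12, 4 were called towards POLR3G and 0 towards POLR3GL, beside 12.3% and 12.9% of all paired loci. The part of peak spacing in this was not tested.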

How the data were processed

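Each list has a chromosome, start, end, peak name and 1 deposited score, without a header line. The score of the Pol III lists is a whole number and that of the Pol II lists has 2 decimals, and the sources used here do not state the authors' scale for either. CASAVA 1.8, Bowtie, SAMtools, HOMER and mm9 are named in the submitters' processing notes, and Pol II peaks are named as MACS peaks. The sources used here do not give thresholds, controls, pooling or depth. The 2 input libraries and the ES POLR3G list were not used here.

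Starts were read as 0-based and are printed 1-based. Autosomal peaks were paired one to one, smallest midpoint distance first, by 1 bp of overlap. Tied scores got their mean rank. Other lists were attached to a locus by 1 bp of overlap. Calculations used Python 3.11.15, numpy 2.4.6, scipy 1.17.1 and pandas 2.3.3. The pairing, and the rank rule towards POLR3G only, were tested on simulated lists. Those lists had no close neighbours and no tied scores, unlike the real ones.

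Members, score classes and comparisons were chosen with earlier results of these data known. Named loci were the 10 largest rank differences in each direction, the 5 highest and 5 lowest mean ranks, the 5 lowest paired POLR3GL scores, the 5 largest offsets, pairs gained by midpoint, the extremes of each cluster, every POLR3G peak without POLR3GL, and the 10 highest POLR3GL peaks with no POLR3G within 500 bp. Other loci named were chosen after their values were seen.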

Additional observations from a re-analysis of the deposited data

How the results depend on the processing

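Of 64 values recomputed for 11 results, 55 stayed within the main value's 95% interval or, for counts of loci, within 1.5 times the main count. For the log2 ratio, the value set against the main count was the number of loci shared with the rank rule. Intervals of the class shares are wide (18.1 to 61.6% for clusters towards POLR3G), so staying inside them says little. With only the peaks that reached the median score of their list, 93.3% of POLR3G peaks were paired and rho fell to 0.49. Without chromosome 13, 72% of POLR3GL peaks were paired and 16.7% of the loci towards POLR3G lay in clusters, beside 19.8% of all 126 paired loci left. With a limit of 33.3% of the ranks, 12 loci were called towards POLR3G and 13 towards POLR3GL. With percentile ranks in whole lists, the counts were 3 and 49. Taking as many loci by the log2 ratio of the scores gave 13 of the 21 loci towards POLR3G and 18 of the 22 towards POLR3GL. The setting without loci that have a neighbour within 500 bp was chosen after seeing the data. No paired analysis was possible because each group has 1 library. With no depth, a missing peak sets no upper limit on binding.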
